A study of Mus musculus with 4 samples.

Results

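The AP-1 genes described here are 10 genes for basic leucine zipper factors, namely Fos, Fosb, Fosl1, Fosl2, Jun, Junb, Jund, Atf3, Maff and Jdp2. They were taken by gene symbol from a table of 40739 transcripts of 25177 symbols, and 16 transcripts carry those symbols. Nuclear RNA had been sequenced from NIH3T3 cells, a long-established mouse fibroblast line of embryonic origin. All 4 libraries came from 1 engineered line that carries an H2B-mCherry fusion, the rtTA3G transactivator and a CDX2 transgene under the TRE3G promoter, and the labels do not say whether that line is a single clone. In 2 libraries the cells had received doxycycline at 500 ng/ml for 6 h, and in 2 they had received solvent for the same time, each from 500000 cells. The treatment protocol in the labels writes the dose per microlitre and the extraction protocol per millilitre. The comparison asks which nuclear transcripts differ once CDX2, a homeobox transcription factor of intestine and trophectoderm, is switched on. Cells without the transgene given doxycycline were not analysed here, so responses to the drug and to CDX2 cannot be told apart.

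AP-1 is a dimer of basic leucine zipper proteins that binds short palindromic DNA sites. Jun proteins pair with themselves or with Fos proteins, whereas Fos proteins need a Jun or another partner. Several members are immediate early genes, whose transcription rises within minutes of serum or stress and then declines, and Fosl1, Fosl2, Junb and Jund stay active in growing fibroblasts. Atf3 and Jdp2 pair with Jun proteins and often repress, and Maff is a small Maf protein without a transactivation domain.

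All values come from the authors' deposited table, which holds 1 log2 fold change per transcript for doxycycline against solvent and no value per library. A level in CPM (counts scaled to library size) was computed for each group from the mean log2 level and the fold change, so it carries no spread between libraries. Cdx2 stood at 4.96 CPM with solvent and 612 CPM with doxycycline by this reckoning. Each of the 10 genes passed the floor of a geometric mean of 10 counts per library, as did 12355 genes in all, and the libraries held an effective geometric mean of 45712476 counts. Fibroblast identity was visible in the marker genes, with all 10 tested and a summed level of 7210 CPM with solvent and 6010 CPM with doxycycline, and 7 of the 10 were lower there by the authors' test (0 rose, and 1 was higher at an unadjusted p under 0.05 by the authors' limma test). Of 6 epithelial, 5 immune, 4 endothelial and 6 muscle and neural markers, 1 each reached the floor, at 4.19 CPM or less in either group. Cdh1, the epithelial one, went from 1.43 to 0.464 CPM. Krt19, an epithelial marker below the floor, went the other way, from 0.0105 to 0.128 CPM (log2 fold change 3.60).

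Of the 10 AP-1 genes, 6 rose and 2 fell with doxycycline, and Fos and Fosl1 did not pass the test, by the adjusted p-values of the authors' deposited table (threshold 0.05). Maff, Atf3 and Junb rose by 1.69-fold to 1.81-fold, and Fosb, Jund and Jdp2 by 1.25-fold to 1.34-fold. Jun, the member with the highest level in CPM, fell by 36.6%, and Fosl2 fell by 25.1%. Over all genes tested, 24.7% were called, 11.3% higher and 13.4% lower, so 8 of 10 is a larger share than the background. Rises made up 45.7% of all called genes, and 60.3% with the median of the ribosomal protein genes set to 0 and p adjusted over the genes tested (46.4% with that adjustment alone), while the AP-1 genes had 6 rises and 2 falls each way. The median log2 fold change of the 10 genes was 0.33, beside -0.0011 over all genes tested. The genes were proposed with earlier results of these data in view, and no test of the list was made.

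**Figure D1:**
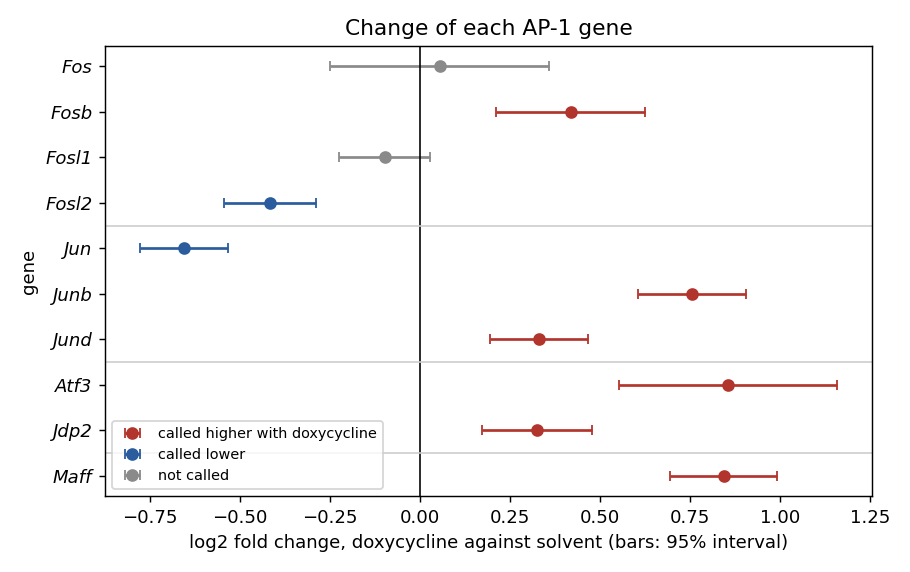
Log2 fold change of each AP-1 gene, doxycycline against solvent, with 95% intervals from the standard errors of the authors' fit; grey lines part the Fos, Jun, Atf3 with Jdp2, and Maff groups. Jun and Fosl2 lie left of 0, Fos and Fosl1 span 0, and the other 6 genes lie to the right.

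The errors behind these calls come from a fit that pools the spread over transcripts, since expression level and fold change by themselves predict 99.2% of the differences in log standard error (variance explained, 19541 transcripts whose mean log2 CPM is 2 or more). The robust SD of t over all genes tested was 2.08, and a stricter reading multiplied every standard error by it. Jun, Fosl2, Junb and Maff passed this stricter reading (adjusted p 3.33e-05, 0.0435, 1.1e-04 and 7.59e-06). Atf3, Jund, Fosb and Jdp2 did not (adjusted p 0.114, 0.232, 0.433 and 0.378). The labels do not say whether the replicates were separate cultures, and the p-values may then reflect technical variation alone.

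The Jun genes moved in opposite directions. Jun (NM_010591, mm10 chromosome 4, 95049036 to 95052222, minus strand, 1 exon), which encodes c-Jun, the strongest activator of the family, stood at 209.0 CPM with solvent and 132.6 CPM with doxycycline. Its log2 fold change was -0.66 ± 0.062 (± standard error), with an adjusted p of 9.60e-24 in the authors' deposited table. A larger change in either direction was found in 602 of the 12355 genes tested. Junb (NM_008416, chromosome 8, 84976909 to 84978748, minus strand, 1 exon), whose product can restrain c-Jun, stood at 18.5 CPM with solvent and 31.2 CPM with doxycycline. It rose by 0.75 ± 0.076, a 1.69-fold change with a 95% interval of 1.52-fold to 1.87-fold (adjusted p 3.11e-21 in the authors' deposited table). Jund (NM_001286944, chromosome 8, 70697739 to 70700616, plus strand), usually the most steadily expressed Jun gene, stood at 37.9 and 47.6 CPM and rose by 0.33 ± 0.069 (adjusted p 3.02e-05 in the authors' deposited table).

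Set against each other per kilobase of exon, the Jun genes changed their proportions. The ratio of Jun to Junb was 6.52 with solvent and 2.45 with doxycycline, a change to 0.376 of the former ratio with a 95% interval of 0.329 to 0.430. The ratio of Jun to Jund went from 4.98 to 2.52, and that of Junb to Jund from 0.765 to 1.03. Jun made up 73.8% of the summed Jun genes per kilobase with solvent and 55.4% with doxycycline. Junb made up 11.3% and 22.6%, and Jund 14.8% and 22.0%. The sum of the 3 genes was 88.8 CPM per kilobase with solvent and 75.2 with doxycycline, so the fall of Jun was larger than the rises of Junb and Jund together. The deposited transcript of Jund is 2877 bases long, against 1668 bases in GENCODE M21, and the order of Jund and Junb depends on which is used. With the shorter length Jun made up 66.7% and 47.8%, Junb 10.2% and 19.5%, and Jund 23.1% and 32.8%. The ratio of Junb to Jund was then 0.444 with solvent and 0.595 with doxycycline, so Junb stayed below Jund in both groups, and that of Jun to Jund was 2.89 and 1.46. The GENCODE M21 annotation places the antisense gene Junos over 689 bases of Jun and Gm11175 over 919 bases of Jund. The libraries were made with a strand-preserving kit, but no label or header names the strand setting used for counting, so both values may share reads with those genes.

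**Figure D2:**
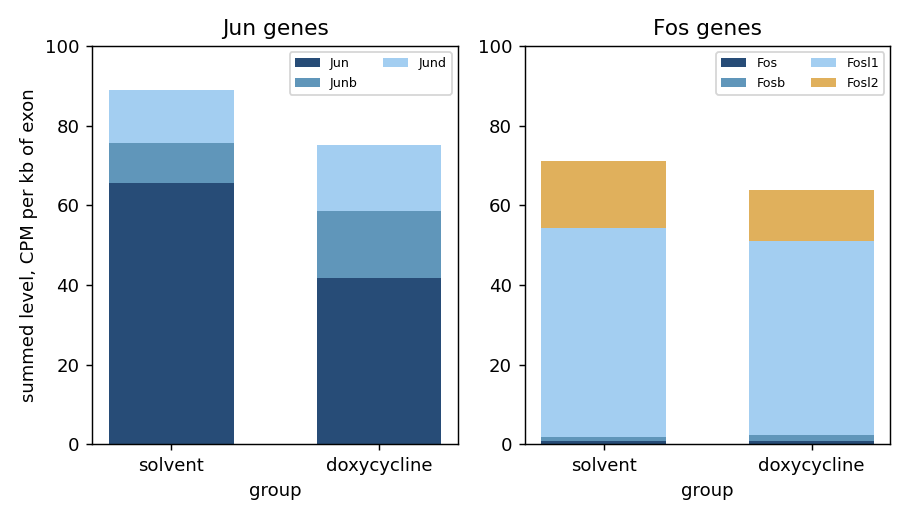
Summed level of the Jun genes (left) and Fos genes (right) in CPM per kilobase of exon, by group; each coloured segment is 1 gene, and no error bar is drawn because the table gives no value per library. The Jun segment shrinks from 65.6 to 41.6 while those of Junb and Jund grow, and Fosl1 and Fosl2 fill nearly all of the Fos bars.

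Among the Fos genes, Fosl2 fell and Fosb rose, while the abundant Fosl1 and the scarce Fos did not pass the test. Fosl2 (NM_008037, chromosome 5, 32136472 to 32157839, plus strand, 4 exons), which encodes Fra-2, stood at 99.9 CPM with solvent and 74.8 CPM with doxycycline. Its log2 fold change was -0.42 ± 0.065 (adjusted p 4.56e-09 in the authors' deposited table). Fosl1 (NM_010235, chromosome 19, 5447698 to 5455938, plus strand, 4 exons), which encodes Fra-1, stood at 88.9 and 83.0 CPM. Its log2 fold change of -0.10 ± 0.065 had a 95% interval of -0.23 to 0.029 (adjusted p 0.420 in the authors' deposited table). A row for Ccdc85b, on the opposite strand, covers 2776 bases of Fosl1 and had nearly the same mean level (6.40 against 6.42 log2 CPM) and a log2 fold change of -0.12 in the authors' deposited table, so the 2 rows may share reads.

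Fosb (NM_008036, chromosome 7, 19302696 to 19310045, minus strand, 4 exons), an inducible member that can activate strongly, stood at 3.93 CPM with solvent and 5.26 CPM with doxycycline. It rose by 0.42 ± 0.11, a 1.34-fold change (adjusted p 9.30e-04 in the authors' deposited table). Fos (NM_010234, chromosome 12, 85473890 to 85477274, plus strand, 4 exons), the classical immediate early gene, stood at 1.65 and 1.71 CPM, with a geometric mean of 76.4 counts per library. Its log2 fold change of 0.054 ± 0.16 (adjusted p 0.873 in the authors' deposited table) had a 95% interval of -0.25 to 0.36. A change of Fos within that interval is neither shown nor excluded at this depth. The smallest change of Fos that would have been called was not computed.

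Fosl1 made up 73.5% of the summed Fos genes per kilobase with solvent and 76.5% with doxycycline. Fosl2 made up 23.9% and 20.0%. Fos was minor, at 1.1% with solvent and 1.28% with doxycycline, as was Fosb, at 1.47% and 2.18%. The sum of the 4 genes was 71.2 CPM per kilobase with solvent and 63.9 with doxycycline. Differences between fold changes were taken for the 10 pairs within the Fos genes, the Jun genes and Atf3 with Jdp2, with errors treated as independent between genes. The pairs were not tested with widened standard errors. With the errors of the authors' fit, the 95% interval excluded 0 for 8 of the 10 pairs. The exceptions were Fos against Fosb (difference -0.36, interval -0.73 to 0.0035) and Fos against Fosl1 (0.15, interval -0.18 to 0.48). Fosb and Fosl2 stood farthest apart among the Fos genes, by 0.84 on the log2 scale (interval 0.59 to 1.08).

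Atf3 and Jdp2, the dimer partners that often repress, both rose. Atf3 (NM_007498, chromosome 1, 191170297 to 191183333, minus strand, 4 exons), a stress-induced member, stood at 1.54 CPM with solvent and 2.79 CPM with doxycycline. It rose by 0.86 ± 0.15, a 1.81-fold change with a 95% interval of 1.47-fold to 2.23-fold (adjusted p 7.68e-07 in the authors' deposited table), from a geometric mean of 94.3 counts per library. Jdp2 (NM_030887, chromosome 12, 85599416 to 85639878, plus strand, 4 exons), known as a repressor that pairs with c-Jun, stood at 16.5 and 20.7 CPM. It rose by 0.32 ± 0.078 (adjusted p 3.97e-04 in the authors' deposited table). Atf3 exceeded Jdp2 in its rise by 0.53 on the log2 scale (interval 0.19 to 0.87, errors not widened). Per kilobase, Jdp2 was by far the more abundant of the pair, at 11.3 against 1.05 CPM per kilobase as means over all libraries.

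Maff (NM_010755, chromosome 15, 79347520 to 79359076, plus strand, 3 exons), the small Maf gene, had the smallest adjusted p-value of the 10. It stood at 17.1 CPM with solvent and 30.7 CPM with doxycycline, and rose by 0.84 ± 0.076, a 1.79-fold change with a 95% interval of 1.62-fold to 1.99-fold (adjusted p 1.28e-26 in the authors' deposited table). A larger change in either direction was found in 331 of the genes tested. Its other small Maf relatives, Mafg and Mafk, are in the partner list given further on and were not called.

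Genes with several deposited transcripts gave nearly the same value in each, as rows that share most of their exons would. The 4 transcripts of Maff ranged from 0.843 to 0.850 in log2 fold change, the 3 of Jdp2 from 0.323 to 0.325, and the 2 of Fosb from 0.418 to 0.431, and each was called in the authors' deposited table. The rows do not part the isoforms, since reads in shared exons can count for each of them.

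**Figure D3:**
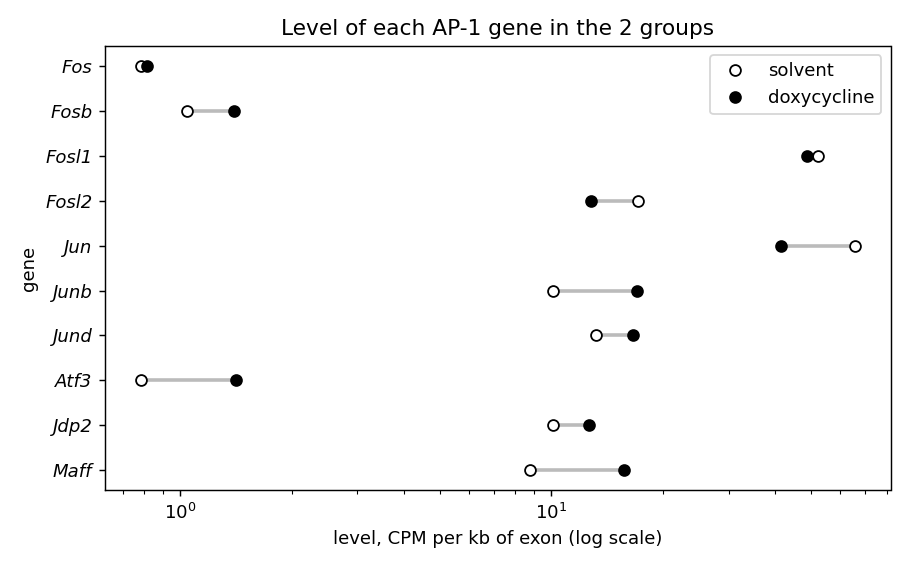
Level of each AP-1 gene in CPM per kilobase of exon on a log axis, with solvent (open) and doxycycline (filled). Jun and Fosl1 are highest, a middle group of 5 genes lies between 8.75 and 17.1 with the deposited lengths, and Fosb, Atf3 and Fos lie at 1.42 or less.

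By mean level per kilobase of exon over the libraries, the members fell into 3 ranges. Jun (52.2 CPM per kilobase) and Fosl1 (50.6) led, and with the deposited lengths their order was within error. With doxycycline Fosl1 stood at 48.9 and Jun at 41.6. Jund (14.76), Fosl2 (14.75), Junb (13.1), Maff (11.7) and Jdp2 (11.3) followed. Jund did not differ from Fosl2 beyond error, nor Maff from Jdp2, with the error of a mean level taken as that of a fold change divided by 2. With the 1668 bases of GENCODE M21, Jund instead stood at 25.5 CPM per kilobase, above Fosl2 by 0.79 on the log2 scale (95% interval 0.69 to 0.88). GENCODE M21 also gives longer transcripts for Fosl1 (1864 against 1698 bases) and Fosl2 (6537 against 5856). Levels with those lengths were not computed, so the order of Fosl1 and Fosl2 among the members may depend on length. Fosb (1.21), Atf3 (1.05) and Fos (0.800) were lowest, and the 95% interval of each step between these means excluded 0. Their order did not hold within each group. With solvent Atf3 (0.783) and Fos (0.785) were nearly equal, and with doxycycline Atf3 (1.42) stood above Fosb (1.39).

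**Figure D4:**
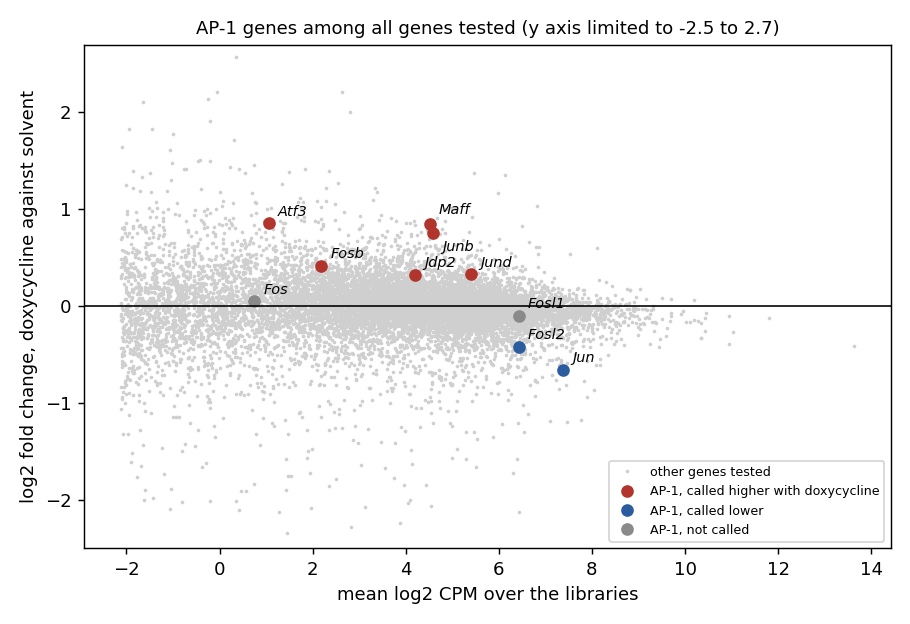
Log2 fold change against mean log2 CPM for every gene tested (small grey points) with the AP-1 genes marked; Cdx2 lies above the plotted range. Atf3, Maff and Junb lie in the upper part of the cloud and Jun in the lower part, with other genes beyond them, and Fos and Fosl1 lie in the middle.

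Promoter sequences were taken from RefSeq (GRCm38.p6, the build of mm10), which matched 9 of the 10 members with 13 start sites; Fosl1 is the other member. Windows of 300 bases (250 before the start and 50 from it) were searched on both strands. The window of Jund lies at the start of its deposited transcript of 2877 bases, and had a GC content of 46.7% and 0 matches. The transcript of 1668 bases in GENCODE M21 may start elsewhere, and no window was searched for it. The 150 bases before the start are shown for Jun, Fos, Atf3, Jdp2 and Maff because they hold sites of the kind that AP-1 and its ATF and CREB relatives bind. They lie at chr4:95052223-95052372 (minus strand), chr12:85473740-85473889 (plus), chr1:191183334-191183483 (minus), chr12:85599266-85599415 (plus) and chr15:79347370-79347519 (plus). Capitals mark TGACATCA in Jun, TGACGT and TATAAA in Fos, TGACGT read on the other strand in Atf3, TGACGT in Jdp2, and TGACGTCA with TTTATG in Maff.
Jun: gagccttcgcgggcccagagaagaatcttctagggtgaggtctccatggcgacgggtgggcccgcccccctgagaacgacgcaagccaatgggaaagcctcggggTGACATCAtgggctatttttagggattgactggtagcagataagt
Fos: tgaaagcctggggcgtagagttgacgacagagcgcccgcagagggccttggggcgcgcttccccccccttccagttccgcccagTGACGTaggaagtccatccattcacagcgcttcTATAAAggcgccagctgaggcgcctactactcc
Atf3: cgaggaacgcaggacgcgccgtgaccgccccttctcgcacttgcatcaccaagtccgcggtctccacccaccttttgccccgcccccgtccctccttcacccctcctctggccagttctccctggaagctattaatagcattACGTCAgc
Jdp2: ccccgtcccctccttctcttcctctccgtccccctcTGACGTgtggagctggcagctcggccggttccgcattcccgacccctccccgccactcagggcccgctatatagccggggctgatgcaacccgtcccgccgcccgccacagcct
Maff: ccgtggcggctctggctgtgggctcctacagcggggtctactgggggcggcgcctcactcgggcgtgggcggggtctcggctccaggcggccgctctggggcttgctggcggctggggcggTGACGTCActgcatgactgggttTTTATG

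Positions count from the start, with -1 as the base just before it, and give the leftmost base of a match. The cyclic AMP response element TGACGTCA was found in 1 of the 9 members, Maff, at position -29 from its start, and in 1.79% of 32851 promoters of that length. Its 6-base part TGACGT, which lies inside it, was found in 4 of the 9, namely Fos (position -66), Jdp2 (-114), Atf3 (-8) and Maff. That is 4 of the 13 starts, against 7.51% of all promoters. Shares of all promoters count single starts, whereas Jdp2 and Maff had several starts each. The 5 windows shown had a GC content of 58.7% to 74.3%, against a median of 52.7% over all promoters. TGACATCA, the variant site known from the Jun promoter, was found in Jun at position -45 and at another start of Maff, against 3.62% of all promoters. These last 2 motifs were added after the sequences were seen. Of these 5 genes, Maff, Atf3 and Jdp2 rose, Jun fell and Fos did not pass the test, so genes with such letters had changes in both directions. The consensus AP-1 site TGANTCA, found in 7.81% of all promoters, and the CArG box, the serum response factor site found in 1.63%, had no match in these windows. Sites farther from the start were not searched, so the genes may still hold such sites there. Of 2 motifs bound by CDX proteins, TTTATG was found in Fosb and Maff (11.9% of all promoters) and TTTATTG in no member (4.60%). TATAAA was found in Fos, at position -33, and at the start of Junb (13.6% of all promoters). A match is a description of letters, not evidence of binding.

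The Fos and Jdp2 genes are neighbours on chromosome 12, with 122 kb between them. Jdp2 rose while Fos did not pass the test. Tmed10, a cargo receptor gene 99.2 kb from Fos, had a log2 fold change of -0.021 ± 0.064, and Nek9, a kinase gene, of -0.080 ± 0.068 in the authors' deposited table, and neither was called. Within 200 kb of the 10 members lay 108 other genes that were tested, and 21 of them were called (19.4%, beside 24.7% of all genes tested). Beside the 8 called members, 11 neighbours were called in the same direction as the member and 6 in the opposite one, of 83. Of these, 6 and 3 lay beside Fosb, which had 17 tested neighbours. No neighbour of Atf3 (9 tested), Jun (1) or Fosl2 (2) was called by the authors' limma test.

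Other immediate early genes, which serum and stress induce together with Fos and Jun, changed in both directions, with 72.0% called beside 24.7% of all genes tested. Of 26 listed, 25 were tested, with 9 higher, 9 lower and 7 not called by the authors' deposited p-values and a median log2 fold change of -0.071. Egr1 (1.37 ± 0.071) and Egr2 (2.21 ± 0.12), zinc finger factors, rose, and Myc (-1.30 ± 0.065) and Sgk1 (-1.18 ± 0.063), a serum-induced kinase gene, fell in the authors' deposited table. Egr1 went from 27.5 to 71.0 CPM, beside 1.65 and 1.71 CPM for Fos, which is often induced with it. This list and those below were also chosen with earlier results of these data known, so their shares called may reflect that choice.

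Among known AP-1 target genes, 16 fell and 6 rose, so 71.0% were called beside 24.7% of all genes tested (11.3% higher, 13.4% lower). Of 39 listed, 31 were tested and 9 were not called by the authors' deposited p-values, with a median log2 fold change of -0.18. Ptgs2, which encodes cyclooxygenase 2, went from 268.2 to 117.1 CPM (-1.20 ± 0.062), and Plaur, the urokinase receptor gene, from 43.6 to 20.6 CPM (-1.08 ± 0.073) in the authors' deposited table. The chemokine gene Ccl7 fell by 2.13 ± 0.14 in the authors' deposited table. Lif (1.27 ± 0.11) and Tgfb1 (0.83 ± 0.081), which encode a cytokine and a growth factor, rose in the authors' deposited table. These targets were listed from textbook knowledge of AP-1, but with earlier results of these data known, and no test of the list was made. Many of these genes answer to other factors too.

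**Figure D5:**
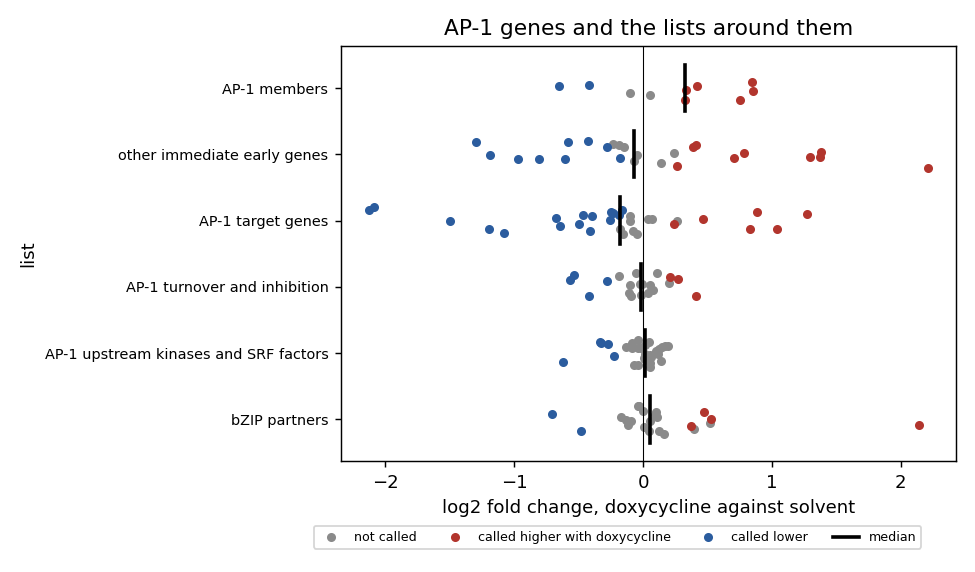
Log2 fold change of each tested gene of the AP-1 set and of 5 lists around it, coloured by call, with the median of each list as a black bar; points are spread vertically for legibility. The AP-1 median lies at 0.33, the target genes at -0.18, and the upstream genes lie close to 0.

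Of the kinases and serum response factors upstream of AP-1, 17.2% were called, beside 24.7% of all genes tested. Of 30 listed, 29 were tested, with 5 lower, 0 higher and 24 not called by the authors' deposited p-values and a median log2 fold change of 0.011. At an unadjusted p under 0.05 by the authors' limma test, 2 were higher and 5 lower. The 5 were Elk3 (-0.34 ± 0.066), a ternary complex factor, Mrtfa (-0.33 ± 0.069) and Mrtfb (-0.22 ± 0.067), actin-regulated partners of serum response factor, Map2k6 (-0.62 ± 0.16), a kinase of the p38 pathway, and Rps6ka5 (-0.28 ± 0.093), a kinase of histones and CREB, in the authors' deposited table. With the standard errors widened as above, 0 of the 29 were called, and 2 had an unadjusted p under 0.05.

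Of the genes that limit AP-1 or destroy its messenger RNA, 35.0% were called, beside 24.7% of all genes tested. All 20 listed were tested, with 3 higher, 4 lower and 13 not called by the authors' deposited p-values and a median log2 fold change of -0.020. Zfp36l1 (-0.57 ± 0.067), an RNA-binding protein of the tristetraprolin family, and the MAP kinase phosphatase genes Dusp1 (-0.54 ± 0.069) and Dusp6 (-0.42 ± 0.065) fell in the authors' deposited table. Zfp36, which encodes tristetraprolin, rose by 0.41 ± 0.089 and Zfp36l2 by 0.27 ± 0.061, while Fbxw7, a ubiquitin ligase subunit that targets c-Jun, fell (-0.28 ± 0.078) in the authors' deposited table. Only the falls of Zfp36l1, Dusp1 and Dusp6 passed with widened standard errors among the 20.

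Of 28 other basic leucine zipper partners listed, 23 were tested, with 4 higher, 2 lower and 17 not called by the authors' deposited p-values and a median log2 fold change of 0.054. Bach2, a repressor that pairs with small Maf proteins such as Maff, went from 0.400 to 1.76 CPM (2.14 ± 0.24, adjusted p 4.55e-17 in the authors' deposited table). Creb3 (0.47 ± 0.085), Mafa (0.53 ± 0.16) and Ddit3 (0.37 ± 0.11), which encodes CHOP, were the other 3 that rose in the authors' deposited table. Cebpd (-0.70 ± 0.097), a CCAAT-binding factor, and Creb5 (-0.48 ± 0.10) fell in the authors' deposited table. The share called was 26.1% of these partners, near the 24.7% of all genes tested.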

How the data were processed

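Nuclear RNA of 4 libraries, 2 with doxycycline and 2 with solvent, was compared, with groups taken from the sample titles. Tools named in the submitters' processing notes, without roles, are limma, edgeR, HOMER 4.10, Picard, SAMtools and STAR 2.7.1a, on mm10. Per the file headers, the columns of the authors' deposited table are the mean log2 expression, log2 fold change, t score, p-value and adjusted p-value of each transcript, and other columns with positions and lengths. It holds no value per library, so the planned count model, the replicate block and the runs without single libraries could not be made and the authors' own test was used.

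The standard error is the log2 fold change divided by t, and 95% intervals assume normal errors. Transcripts without reads share the lowest mean, which was read as 0.5 counts and set the effective library. Where a gene has several transcripts, that of highest mean expression stands for it. Genes with a geometric mean of at least 10 counts per library (0.230 CPM) were tested and called at an adjusted p under 0.05, adjusted by the authors over their whole table. Depth per library is not known. In 9 alternatives the floor, transcript, adjustment, error, scaling and threshold were changed. All 10 members were named, and of each other list the 4 genes with the lowest p, with further genes named after their values were seen; 1 gene that this rule takes is not reported here. Members and lists were chosen with earlier results of these data known. The calling steps were run on simulated counts whose standard errors were known and whose p-values were adjusted within the run. That checks the code only, and not the deposited p-values behind the calls. Python 3.11.15, pandas 2.3.3, numpy 2.4.6 and scipy 1.17.1 were used.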

Additional observations from a re-analysis of the deposited data

How the results depend on the processing

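No paired analysis was possible because the table holds no values per library. For the same reason single libraries could not be left out and no count model was run. Of the 9 alternatives, 5 keep the deposited fold change of a gene by construction, and 4 can move it (another transcript or another scaling). Scaling moved it by 0.046 or 0.0011, less than the smallest change of a member (0.054, Fos). Another transcript could be taken only for Maff, Jdp2 and Fosb, whose rows gave nearly the same value. The direction of the 10 AP-1 genes could therefore not reverse and was not tested by these alternatives. The call was the same in 86 of 90 gene-by-alternative values, and the other 4 were the losses of Atf3, Fosb, Jund and Jdp2 with widened standard errors. That setting also reduced the number of called genes from 8 to 4 for the AP-1 set (2 higher, 2 lower), from 3047 to 576 over all genes (3392 with the same adjustment over the genes tested and no widening), and to 2 for basic leucine zipper partners, 0 for upstream genes (2 at an unadjusted p under 0.05), 3 for limiting genes, 12 for target genes and 10 for other immediate early genes. It multiplies each error by the spread of t, which holds real changes too. With the median of 77 ribosomal protein genes (-0.046) set to 0, and p adjusted over the genes tested, rises made up 60.3% of called genes, beside 46.4% with that adjustment alone and 45.7% as reported, while the AP-1 set kept 6 rises and 2 falls. Of the other named genes, 7 lost their call with widened errors (Creb3, Creb5, Elk3, Map2k6, Mrtfa, Mrtfb and Zfp36), and Bach2 is not tested at a floor of 50 counts. The shorter length of Jund was tried after the data were seen. The counts of Fos and Atf3 limit what can be said of small changes in them.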
